A study of Mus musculus with 6 samples.

Results

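The splicing of 10 genes of hepatic iron handling was compared between hepatocytes of mice on a high-fat and a low-fat diet. The genes were hepcidin (Hamp), its neighbouring duplicate Hamp2, transferrin (Trf), transferrin receptor 2 (Tfr2), Hfe, ferroportin (Slc40a1), both ferritin subunits (Fth1 and Ftl1), matriptase-2 (Tmprss6) and ceruloplasmin (Cp). They were picked by name out of 7186 genes with a quantified splicing variation on either diet, with the values of Hamp2 already known. The values below are therefore given as a description. The HFD group (60% fat) and the LFD group (10% fat) had 3 libraries each, from hepatocytes isolated from the livers of male C57BL/6J mice. All mice ate chow (13.5% fat) up to the age of 8 weeks, and their diet lasted 12 weeks. The libraries were stranded mRNA libraries read as paired ends of 100 cycles. The deposited values are pooled per diet, so no value below has a spread between animals, and no test between the diets could be made from the libraries.

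Hepcidin is a peptide hormone that hepatocytes secrete into the blood. It binds ferroportin, the cellular iron exporter, and causes its internalisation and degradation, so that less iron leaves enterocytes, macrophages and hepatocytes. Hepatocytes set hepcidin transcription through bone morphogenetic protein signalling and through sensing of iron-loaded transferrin, in which Hfe and Tfr2 take part, while Tmprss6 dampens it. Mice carry a duplicated hepcidin gene, Hamp2, whose peptide does not share the iron-regulating activity of hepcidin in transgenic mice.

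Splicing was described with local splicing variations (LSVs), each a reference exon with the junctions, and any unspliced intron, that leave or enter it. PSI is the fraction of an LSV's reads that use an entry, here a posterior mean between 0.0125 and 0.9875, the centres of the lowest and highest of 40 bins. The ± after a PSI is the posterior SD, which covers reads within the pooled libraries and not animals. The 10 genes had 81 LSVs for HFD and 83 for LFD, and 80 LSVs with 230 entries were on both diets, of 26910 LSVs and 68110 entries in all. Of these 230 entries, 207 were junctions, 108 of them annotated introns in GENCODE M21, and 23 were unspliced introns. The same junction or intron can be an entry of several LSVs, so these are counts of entries and not of distinct junctions or introns. The tables hold splicing and no expression levels, so the labelled cell type could be checked only by which marker genes had an LSV on both diets. All 10 hepatocyte markers did, against 2 of 10 Kupffer cell and macrophage markers, 3 of 10 endothelial markers, 2 of 8 stellate cell markers and 1 of 5 bile duct markers. Read depth per library is unknown.

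Hamp and Hamp2 lie next to each other on the minus strand of chromosome 7 (GRCm38, the same assembly as mm10), Hamp at chr7:30942368-30944032 and Hamp2 at chr7:30922372-30924681. They are 17686 bp apart, and Hamp is the upstream gene. The transcripts compared have 3 exons each, and intron 2 is 83 bp long in both. Exon 2 is identical in the genes over all 60 bases. Exon 1 differs at 2 of 136 bases, the nearer of them 7 bases before its end. The coding part of exon 3, which holds the sequence of the mature peptide, differs at 15 of 102 bases, the first of them at base 3 and the next at base 32. The windows below show only the bases nearest the splice junctions. The sequenced reads were longer than these windows. A read over a junction can therefore also cover differing bases outside its window, such as base 32 of exon 3 or those of exon 1. The windows alone do not set whether a read can tell the genes apart. Each window is read 5′ to 3′ on the minus strand from the GENCODE M21 transcripts. The capital marks the base at which Hamp and Hamp2 differ. The first 3 windows hold 10 bases of exon 2 and 20 of exon 3.
Hamp exon 2 to Hamp exon 3: agacattgcgatAccaatgcagaagagaag
Hamp2 exon 2 to Hamp2 exon 3: agacattgcgatCccaatgcagaagagaag
Hamp exon 2 to Hamp2 exon 3: agacattgcgatCccaatgcagaagagaag
Hamp exon 1 to Hamp exon 2: ccacctatctccaTcaacagatgagacaga
Hamp2 exon 1 to Hamp2 exon 2: ccacctatctccaGcaacagatgagacaga
The window of Hamp exon 2 joined to Hamp2 exon 3 equals that of Hamp2's own junction at 30 of 30 bases. Past the window too, both hold the same exon 2 followed by Hamp2 exon 3, so base 32 of exon 3 does not separate them. In the spliced transcripts only the differing bases of exon 1, which the window leaves out, could do so. Hamp's own junction and Hamp2's own junction differ at 1 of these 30 bases, in exon 3. Whether reads of one gene were aligned to the other was not tested, since the reads were not analysed here.

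Under the name Hamp the tables held 1 LSV, which leaves exon 2 (chr7:30942665-30942724). It was nearly the same on both diets. The annotated 83-bp junction from exon 2 to exon 3 had a PSI of 0.964 ± 0.0058 for HFD and 0.962 ± 9.1e-05 for LFD. The unspliced part of the intron next to exon 2, 56 bp long, had a PSI of 0.036 ± 0.0059 for HFD and 0.0375 ± 0.0002 for LFD. The unannotated acceptors that remove 56 and 95 bp were at the floor of 0.0125 on both diets. The widest difference in this LSV was -0.0015.

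**Figure D1:**
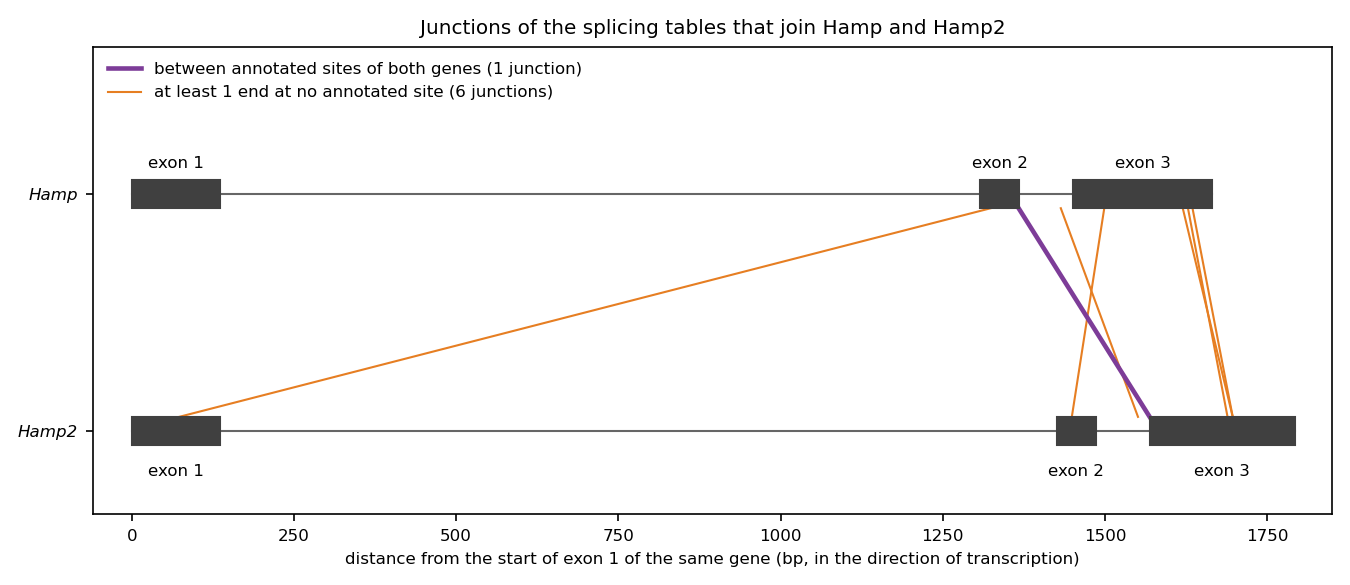
Map of Hamp (upper line) and Hamp2 (lower line), with position in bp from the start of exon 1 of each gene in the direction of transcription. Boxes are annotated exons, and slanted lines are the 7 junctions with a pooled PSI that join the genes. Of these, 1 connects annotated splice sites, those of Hamp exon 2 and Hamp2 exon 3.

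Junctions that join Hamp and Hamp2 appeared in 9 entries of the 3 Hamp2 LSVs on both diets. They were 7 distinct junctions of 18599 to 20052 bp, and no other gene's LSVs held any. The 20052-bp junction runs from the annotated donor of Hamp exon 2 (30942665) to the annotated acceptor of Hamp2 exon 3 (30922612). The 19969-bp junction (30942600 to 30922630) has both ends within intron 2, and its length equals the distance between the corresponding positions of the genes' exons 2. In the transcripts' letters, 5 of the other junctions start and end inside exons, and 4 to 6 bases are repeated at their ends. Introns usually begin with GT and end with AG when read, as here, 5′ to 3′ on the strand of the transcript. The 19912-bp and 19927-bp junctions between the 3′ untranslated parts begin with CT and end with AC, which is the reverse complement of that pattern. The 19911-bp junction begins with CA and ends with AC. The 19800-bp junction (30942533 to 30922732) begins with TC and ends with CA, and the 18599-bp junction (30942708 to 30924108) with GC and AG. Because of the repeated bases, each of these 5 junctions could be placed at several equivalent positions. The letters given are those of the listed position. The intronic letters at the ends of the 20052-bp and 19969-bp junctions were not read here.

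The widest difference of the 10 genes was at the junction that joins annotated sites of both. It stood in an LSV listed under Hamp2 whose reference exon, chr7:30942600-30942724, is exon 2 of Hamp with the adjoining part of its intron. In this LSV the 20052-bp junction to Hamp2 exon 3 had a PSI of 0.981 ± 0.0142 for HFD and 0.256 ± 0.031 for LFD, a difference of 0.725 with a posterior SD of 0.0341. The 18 bp of unspliced Hamp intron beside the reference exon (30942582 to 30942599) went the other way, with 0.0134 ± 0.0056 for HFD and 0.515 ± 0.0368 for LFD. The junction thus took nearly all of the LSV for HFD, while the intron took the greatest share for LFD. The effective number of reads computed for the junction was 89.4 for HFD and 197 for LFD. For the 18-bp intron of the same LSV it was 426 for HFD and 183 for LFD, so it is not a count of the LSV's reads. The remaining entries were all near the floor for HFD, at 0.0134 ± 0.0056, and above it for LFD. Among them, the 19969-bp junction was at 0.106 ± 0.021 for LFD and the 18599-bp junction at 0.0262 ± 0.0136.

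Hamp's own 83-bp junction was also an entry of that LSV, with 0.0134 ± 0.0056 for HFD and 0.0957 ± 0.02 for LFD. The same coordinates had a PSI of 0.964 for HFD and 0.962 for LFD in the LSV listed under Hamp. The LSVs share the donor but not the reference exon or the set of entries, so their values are not fractions of the same whole.

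A junction or intron was called different if the gap in PSI was 0.2 or more and beyond its 95% limit. That limit is the normal quantile multiplied by the posterior SD of the difference, whose variance is the sum of the posterior variances of the diets. By this rule 2 of the 230 entries were called, the 20052-bp junction and the 18-bp intron above, against 0.417% of the 68110 entries of all genes. They lie in 1 of 80 LSVs (0.624% of all LSVs) and in 1 of 10 genes (2.31% of all genes). With a minimum of 0.1 it was 3 of the 230 entries, against 2.87% of all entries, and with 0.05 it was 7, against 7.1%. The Hamp2 values had entered the choice of genes, so nothing is read from these counts. The entry nearest the threshold inside it differed by -0.502, and the nearest outside it by -0.124. Without the LSVs listed under Hamp2 whose reference exon lies in Hamp, a choice made after the values were seen, 0 of the members' entries were called.

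The authors' deposited table of differences (dPSI, HFD minus LFD), from a separate run, lists 1 LSV of the 10 genes, the same Hamp2 LSV, against 0.36% of all LSVs on both diets. In the authors' deposited table the 20052-bp junction has a PSI of 0.987 for HFD and 0.429 for LFD, with a dPSI of 0.56. In the authors' deposited table the 18-bp intron has 0.003 for HFD and 0.4 for LFD, with a dPSI of -0.385. The directions are those of the pooled PSI tables, and both dPSI values are smaller in size. The authors' deposited table also gives another start, 30922659, for the junction that ends at 30942600, for which the PSI tables give 30922630. That 19940-bp junction has 0.003 for HFD and 0.015 for LFD, with a dPSI of 1.9e-06. The pooled PSI of the 19969-bp junction was 0.0134 for HFD and 0.106 for LFD. The 19940-bp junction is not among the 7 junctions counted above.

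The LSV that enters Hamp2 exon 3 (reference exon chr7:30922372-30922639, which runs into intron 2) also held the duplicate's own splicing. Hamp2's own 83-bp junction had a PSI of 0.77 ± 0.0233 for HFD and 0.894 ± 0.0132 for LFD. The difference of -0.124 was 4.65 times its posterior SD, yet under the 0.2 minimum. The 20052-bp junction from Hamp exon 2 had 0.0929 ± 0.0158 for HFD and 0.0409 ± 0.0086 for LFD here, the same direction as in the LSV above at a much lower level. The 5 entries that join the genes summed to 0.244 for HFD and 0.114 for LFD. Each entry adds at least the floor of 0.0125 to these sums. For LFD the 19969-bp, 19911-bp and 19927-bp junctions were at or near that floor, and for HFD the 19969-bp junction was. The sums are therefore not plain shares of the reads.

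Of these 5, the junctions between the 3′ untranslated parts of exon 3 were not alike. The 19911-bp junction had 0.0635 ± 0.0136 for HFD and was at the floor for LFD. The 19927-bp junction had 0.0406 ± 0.0099 for HFD and 0.0125 ± 0.0003 for LFD. The 19912-bp junction had 0.0342 for HFD and 0.0343 for LFD, with no difference beyond its posterior SD. In the LSV that enters Hamp2 exon 2 (chr7:30922696-30922755), Hamp2's own 1290-bp junction had 0.9875 ± 5.5e-05 for HFD and 0.961 ± 0.0059 for LFD. The 19800-bp junction, which starts within Hamp exon 3, was at the floor for HFD and at 0.0389 ± 0.0059 for LFD. Junctions that join the genes were thus not uniformly higher on either diet.

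**Figure D2:**
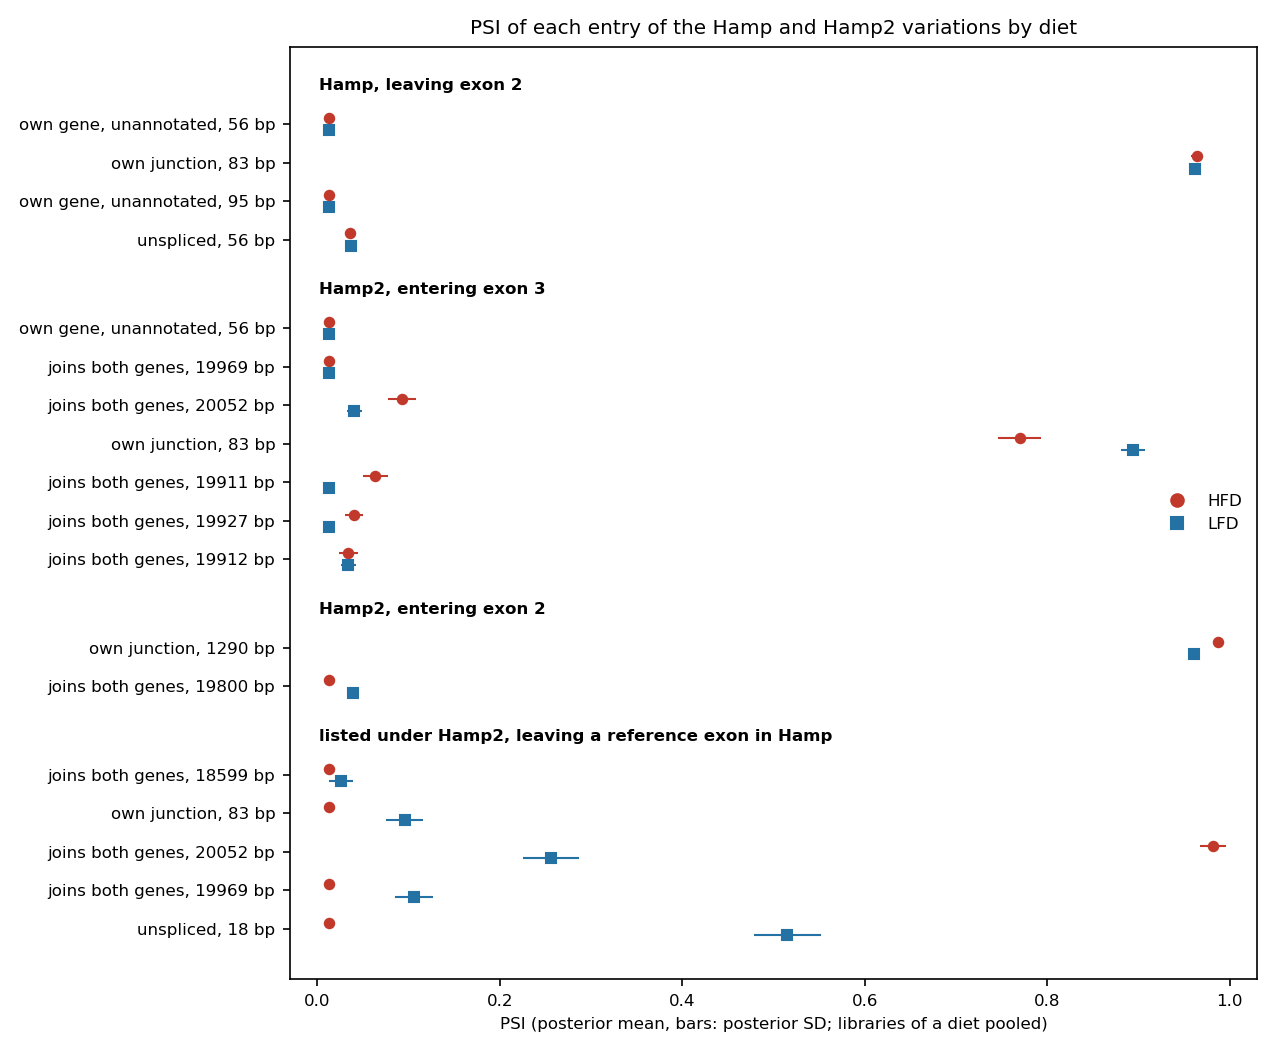
PSI (horizontal axis, fraction of the LSV's reads) of the 18 entries in the 4 LSVs listed under Hamp and Hamp2, with HFD as circles above LFD as squares and posterior SDs as bars. The diets lie on top of each other in the Hamp LSV and are farthest apart at the 20052-bp junction (0.981 for HFD and 0.256 for LFD) in the LSV listed under Hamp2 but located in Hamp.

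Another 2 LSVs listed under Hamp2 were present for LFD alone. Both have the same reference exon, chr7:30942397-30942581, which is a part of Hamp exon 3. In the LSV that enters it, the 18-bp intron had 0.953 ± 0.0126 for LFD and the 83-bp junction of Hamp 0.0469 ± 0.0126. In the LSV that leaves it, every entry joins the genes, and the 19800-bp junction had 0.453 ± 0.048 for LFD. The 19912-bp junction had 0.391 ± 0.048, the 19927-bp junction 0.154 ± 0.0338 and the 19911-bp junction 0.0126 ± 0.0016 for LFD. No HFD value exists for these LSVs, so no difference could be given.

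The other 8 genes had 76 LSVs and 212 entries on both diets, and their splicing was close to the same. Their widest difference was 0.0395. Of the 212 entries, 5 differed by more than their 95% limit, 4 in Tfr2 and 1 in Tmprss6, against 10.1% of the 68110 entries of all genes. Both diets were within 0.001 of the floor at 96 of the 212 entries and within 0.001 of the ceiling at 47. Of their 86 entries that were unannotated junctions, 83 had a PSI under 0.05 on both diets.

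**Figure D3:**
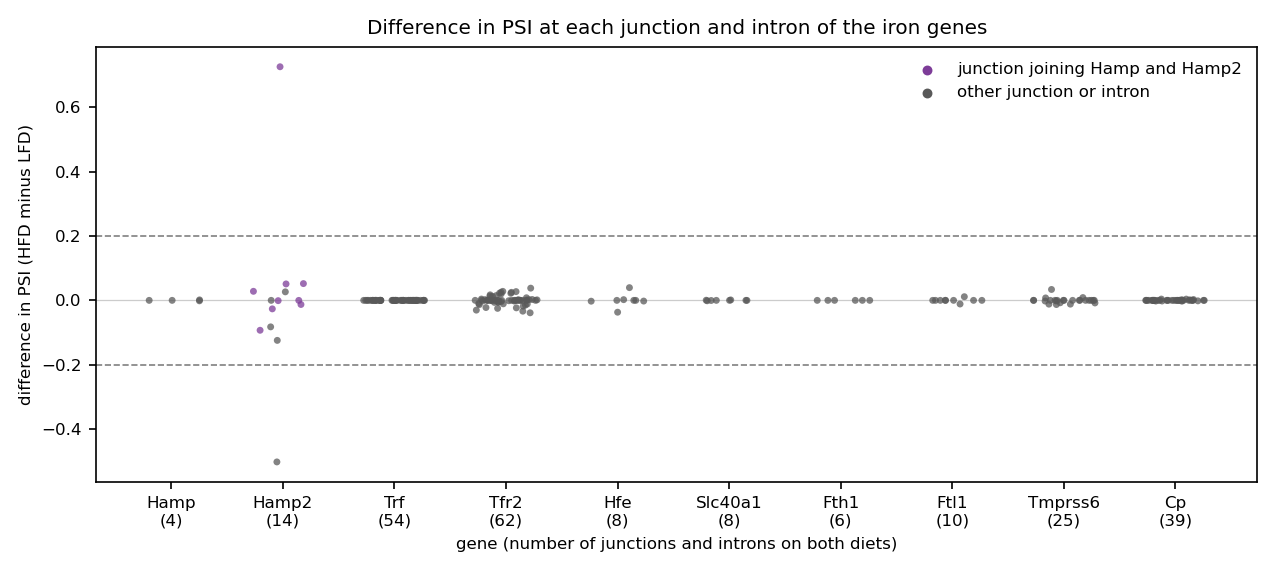
Difference in PSI (vertical axis, HFD minus LFD) at each of the 230 entries, by gene, with the number of entries under each name and dashed lines at ±0.2. The entries past the dashed lines are 1 junction joining the genes (0.725) and 1 intron (-0.502), both listed under Hamp2, while the other 8 genes stay between -0.0386 and 0.0395.

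Among the sensors and regulators of hepcidin, Tfr2 (chr5:137569840-137587481, plus strand) was spliced in the most varied way, with 20 LSVs and 62 entries. It held 16 of the 23 entries for unspliced introns. Each of these introns was listed both where an exon is left and where the next is entered, so the distinct introns were fewer. The 5′ untranslated exon 1 of Tfr2 (137569851 to 137569994) had several donors in use, joined to the acceptor at 137570072. The donor at 137569934 had a PSI of 0.32 ± 0.0229 for HFD and 0.282 ± 0.0213 for LFD. The unannotated donor at 137569959 had 0.206 ± 0.0179 for HFD and 0.237 ± 0.0189 for LFD. The donor at 137569994 had 0.153 ± 0.0153 for HFD and 0.145 ± 0.0138 for LFD. The 77-bp intron between that last donor and the acceptor was left in at 0.2 ± 0.0165 for HFD and 0.239 ± 0.0174 for LFD. That last difference, -0.0386, was the widest of Tfr2 and 1.61 times its posterior SD. No donor took the majority of the LSV on either diet.

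Within the coding part of Tfr2, annotated junctions dominated. An unannotated acceptor at 137583275, reached from 137583150 by a 124-bp junction, had 0.0377 ± 0.0071 for HFD and 0.0125 ± 0.0006 for LFD, and nearly the same values in the LSV that enters the next exon. The difference of 0.0251 was 3.52 times its posterior SD, but only about the width of a PSI bin, 0.025. The annotated 80-bp junction of the same exon had 0.951 for HFD and 0.957 for LFD. The unspliced 80-bp intron had 0.0126 ± 0.0016 for HFD and 0.0359 ± 0.0069 for LFD, 3.26 posterior SDs but under a bin width apart. In the LSV that enters the next exon its difference was 0.901 posterior SDs. The 293-bp junction from 137583632 to 137583926 had 0.9875 for HFD and 0.965 ± 0.0085 for LFD where it enters. That gap was 2.6 posterior SDs but under a bin width. In the LSV that the junction leaves, the difference was 0.978 posterior SDs. The 70-bp intron after 137583315 had 0.0705 ± 0.013 for HFD and 0.0425 ± 0.0102 for LFD, within 1.69 posterior SDs.

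Hfe, the MHC class I-like protein mutated in hereditary haemochromatosis (chr13:23702034-23710854, minus strand), had 3 LSVs and 8 entries, 7 of them annotated. Its exon 1 was joined to the next coding exon by a 2335-bp junction with 0.907 ± 0.0269 for HFD and 0.944 ± 0.0214 for LFD. An unannotated 114-bp junction from the same donor to 23710512, within the intron, had 0.0622 ± 0.0227 for HFD and 0.0227 ± 0.0144 for LFD. The difference of 0.0395 was 1.47 times its posterior SD. The exon-skipping 3560-bp and 4490-bp junctions stayed at or under 0.0313 on both diets. The effective read number of the 114-bp junction, computed from its posterior SD, was near 112 for HFD and 106 for LFD.

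Tmprss6 encodes the protease that cleaves hemojuvelin, a coreceptor for bone morphogenetic proteins (chr15:78439667-78468634, minus strand). It had 10 LSVs and 25 entries, all spliced. Its first exon was joined to a pair of annotated acceptors. The nearer one at 78465343 had 0.739 ± 0.0222 for HFD and 0.75 ± 0.0213 for LFD, and the farther one at 78465308 had 0.258 ± 0.0222 for HFD and 0.249 ± 0.0212 for LFD. The diets did not differ beyond the posterior SDs at either. The widest difference of the gene, 0.0338, was at the annotated 273-bp junction from 78459745 to 78459471, with 0.987 ± 0.0037 for HFD and 0.953 ± 0.0121 for LFD. That is 2.66 posterior SDs.

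Among the carriers and the exporter, transferrin (Trf, chr9:103204001-103230444, minus strand), the iron carrier of plasma, had 16 LSVs with 54 entries. The difference was 0 at each of them, since 38 entries lay in the lowest bin and 16 in the highest bin on both diets. Ferroportin (Slc40a1, chr1:45908068-45926523, minus strand) had 4 LSVs with 8 entries and a widest difference of 0.0013. Its main junctions had 0.986 to 0.9875 on both diets.

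Ceruloplasmin (Cp, chr3:19957054-20009145, plus strand) is the copper ferroxidase that oxidises iron for loading onto transferrin. It had 16 LSVs with 39 entries on both diets and a widest difference of 0.004. A pair of acceptors lies 3 bases apart in its coding sequence and both were in use. The windows are shown because this was the one Cp exon end with both choices in use on both diets. They start with 12 bases of the upstream exon, are read 5′ to 3′ on the plus strand from the GENCODE M21 transcripts (GRCm38), and the capitals mark the 3 bases that the 929-bp junction keeps and the 932-bp junction removes.
Cp 929-bp junction: cctcacagcaagCAGcctcccatgtggctc
Cp 932-bp junction: cctcacagcaagcctcccatgtggctc
The 929-bp junction (19973929 to 19974859) had 0.233 ± 0.0177 for HFD and 0.231 ± 0.0197 for LFD. The 932-bp junction (19973929 to 19974862) had 0.767 ± 0.0177 for HFD and 0.769 ± 0.0197 for LFD. The shorter form was thus the commoner on both diets, and the ratio of the forms was the same within the posterior SD.

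The 3′ end of Cp is known to be spliced into a secreted and a membrane-anchored form. At the donor 19989218, the annotated junction to 19992509 had 0.9875 for HFD and 0.983 ± 0.0092 for LFD, and the annotated junction to 20005467 was at the floor on both diets. In an LSV present for LFD alone, the last exon (chr3:20008540-20009145) was entered by an unannotated 5383-bp junction at 0.775 ± 0.0543 and by the annotated 2968-bp junction at 0.225 ± 0.0543, on 58.1 effective reads. An LSV present for HFD alone, at chr3:19987462-19987575, had the 65-bp segment before it at 0.9875 and a 1795-bp junction at the floor.

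**Figure D4:**
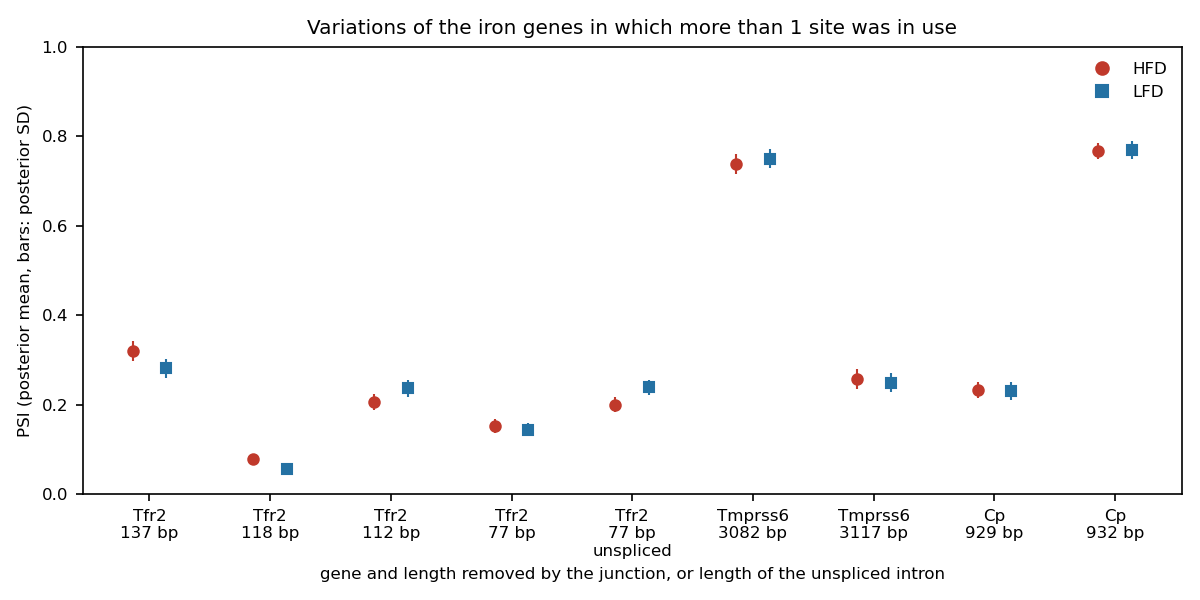
PSI (vertical axis, 0 to 1) at the donors of Tfr2 exon 1, the acceptors after the first exon of Tmprss6 and the acceptors of Cp, labelled by the length removed, with HFD as circles left of LFD as squares and posterior SDs as bars. The widest difference among these sites is -0.0386, at the unspliced 77-bp intron of Tfr2.

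Cp was also the 1 gene of the 10 with events in the authors' deposited table from JUM, a program that tests splicing from junction reads. The authors' deposited table lists 4 Cp events, of which 1 has an adjusted p under 0.05, against 17.7% of the 470 listed events. That event is retention of the 980-bp intron between the coding exons that end at 19988072 and start at 19989053, for which the authors' deposited table gives a PSI change of 0.0596 (HFD minus LFD, adjusted p = 0.00207). Of the 118 retained introns in the authors' deposited table, 36.4% are past that threshold, and 35.6% are past it and higher for HFD. The 881-bp intron between 19970030 and 19970912 has a change of 0.0634 (adjusted p = 0.113) there, again as the authors' deposited table gives it. The other Cp events in the authors' deposited table are alternative acceptors with changes between -0.0071 and 0.0082 and adjusted p-values of 0.205 and 0.334. In the PSI tables the LSV at 19988072 has no unspliced entry, and its annotated 980-bp junction was at 0.9875 on both diets. Whether those p-values take in variation between libraries was not examined.

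Ferritin stores iron in a shell of heavy subunits (Fth1), which oxidise it, and light subunits (Ftl1), which help the mineral core form. Fth1 (chr19:9980598-9985098, plus strand) had 3 LSVs with 6 entries and a difference of 0 at each. Its 95-bp intron was spliced at 0.9875 and unspliced at 0.0125 on both diets. Ftl1 (chr7:45457944-45459884, minus strand) had 4 LSVs with 10 entries. Its 299-bp main intron was spliced at 0.987 for HFD and 0.9875 for LFD. The widest difference of Ftl1, 0.0113, was at the exon at 45459324 to 45459463, known from non-coding transcripts, whose 93-bp intron was unspliced at 0.987 ± 0.0008 for HFD and 0.976 ± 0.0133 for LFD. GENCODE M21 names 2 Fth and 3 Ftl pseudogenes, and reads may be shared with such copies, so the ferritin values are uncertain in that respect.

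Seen over LSVs, the widest difference was under 0.01 in 62 of 80, from 0.01 to 0.05 in 16 and at least 0.05 in 2, both of Hamp2. The LSVs past 0.05 and past the 95% limit were 2 of 80, against 9.87% of all LSVs. The median of the widest difference per LSV was 1.2e-05 in the 10 genes and 0.0068 over all 26910 LSVs. Under 0.05 were 97.5% of the LSVs of the 10 genes and 85.7% of all LSVs. At most entries of Trf, Cp, Fth1, Ftl1, Slc40a1 and Tmprss6, both diets were within 0.001 of the floor or of the ceiling. Read depth was not matched between the genes, and its part in this difference was not tested.

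**Figure D5:**
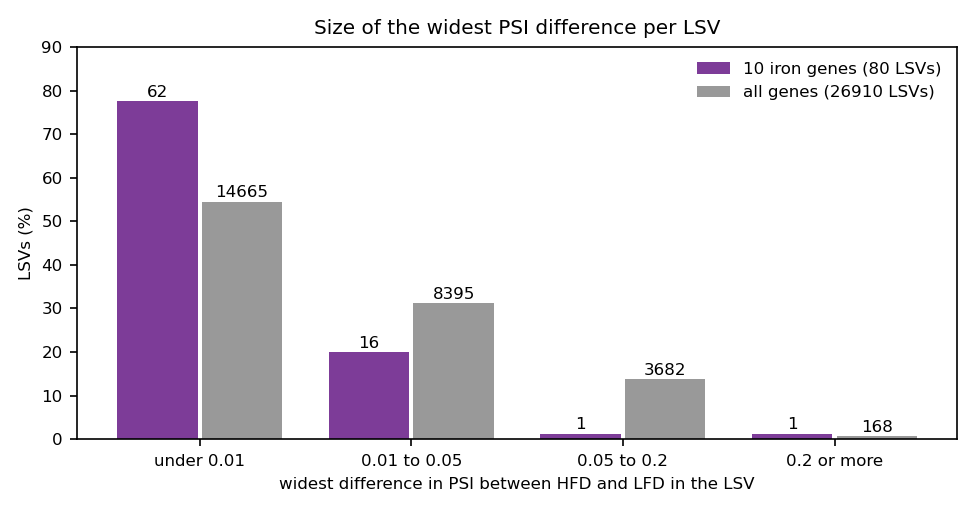
Share of LSVs (vertical axis, percent) by the widest PSI difference between HFD and LFD in the LSV, for the 10 iron genes and for all genes, with the number of LSVs above each bar. Of the 80 LSVs of the iron genes 62 are under 0.01, and 1 is at 0.2 or more.

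The wider iron pathway was read from 3 lists that do not hold the 10 genes. LSVs on both diets were found for 13 of 33 genes of hepcidin signalling, 14 of 29 genes of iron uptake, storage and export, and 34 of 46 genes of haem and iron-sulphur metabolism. None of these 61 genes had an entry past the rule of 0.2, against 2.31% of all genes, and none is in the authors' deposited dPSI table, against 1.72% of all genes with an LSV on both diets. The median of the widest difference per LSV was 0.0022, 0.0148 and 0.00058 in these lists, beside 0.0068 over all LSVs. In the authors' deposited table from JUM, 2 of the 61 genes have an event with an adjusted p under 0.05, against 1.05% of genes. Fdx1, the mitochondrial ferredoxin that passes electrons to steroid hydroxylases, has an intron whose PSI change is 0.321 (HFD minus LFD, adjusted p = 0.0426) in the authors' deposited table. Hp, the haemoglobin scavenger haptoglobin, has an acceptor choice that changes by 0.0016 (adjusted p = 0.0177) in the authors' deposited table.

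With a minimum of 0.1 in place of 0.2, 8 of the 61 genes (13.1%) were past the rule, against 13.4% of all genes, and with 0.05 it was 16 (26.2%), against 27% of all genes. Those past 0.1 were Fdxr, Furin, Hmox2, Ncoa4, Picalm, Ppox, Slc25a39 and Stat3, and the genes that follow were chosen after their values were seen. In Stat3, which mediates the induction of hepcidin by interleukin 6, the junction from 100889886 to 100889540 on chromosome 11 had 0.0669 ± 0.0173 for HFD and 0.182 ± 0.0242 for LFD. In Ncoa4, the receptor that takes ferritin to the lysosome, the junction between 32172443 and 32172607 on chromosome 14 had 0.842 ± 0.0237 for HFD and 0.955 ± 0.0119 for LFD. In Slc25a39, a mitochondrial carrier needed for haem synthesis, the junction between 102406654 and 102407390 on chromosome 11 had 0.71 ± 0.0226 for HFD and 0.537 ± 0.0246 for LFD. In Furin, the protease that processes prohepcidin, the junction between 80398928 and 80401427 on chromosome 7 had 0.105 ± 0.0239 for HFD and 0.225 ± 0.0274 for LFD. The share in the lists is thus near that of all genes.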

How the data were processed

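The submitters' processing notes name FastQC, STAR and the mm10 build, with no versions. Per the file headers, PSI and its posterior variance came from voila, the viewer of MAJIQ, in 1 table deposited by the authors for each diet, with libraries pooled. The dPSI table and the JUM table, with PSI changes, p-values and adjusted p-values, hold the authors' own comparisons. JUM's title line names NC (normal chow in the labels), but the heading of its change column, HFD minus LFD, was followed. The probability column of the dPSI table contradicts its heading, so each listed LSV was counted. Groups follow the library titles. LSVs were matched by ID with Python 3.11.15, pandas 2.3.3 and numpy 2.4.6. Effective reads are PSI × (1 − PSI) / variance − 1, an estimate that covers counting error. Near the floor or the ceiling it is not a count of reads. An upper JUM coordinate is 2 less than the next exon's first base, and shifting it so matched 5 of 7 Cp junctions and introns to annotated introns. Gene models and transcript letters are from GENCODE M21. The rule for named genes takes junctions that join Hamp and Hamp2, LSVs differing by at least 0.05, LSVs listed in either of the authors' comparisons, and genes of the pathway lists past the rule of 0.2, in the dPSI table or past JUM's adjusted p. The genes and lists were chosen with earlier results of these data known. Other entries were named after their values were seen.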

Additional observations from a re-analysis of the deposited data

How the results depend on the processing

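The count of 2 called entries in the 10 genes was 3 with a minimum difference of 0.1 (against 2.87% of the entries of all genes) and 7 with 0.05 (against 7.1%), and stayed at 2 with 3 posterior SDs or with no condition on the variance. It was 1 without unspliced introns, 1 without junctions that join Hamp and Hamp2, and 0 without LSVs listed under Hamp2 that lie in Hamp, the last added after seeing the data. These follow from the entries each setting leaves out. The pathway genes called were 0, and 8 at 0.1 and 16 (26.2%, against 27% of all genes) at 0.05. Member events in JUM were 1 at an adjusted p under 0.05 or 0.01, and 4 when any listed event counted. The widest Hamp2 difference of 0.725 was 0.56 in the authors' deposited dPSI table, and the cause was not tested. Leaving out libraries was not run, since no table used here holds a value per library. No paired analysis was possible because the values are pooled per diet. Depth per library is unknown, and posterior SDs cover reads, not animals.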
